A study of Mus musculus with 2 samples.

Results

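The Hes, Hey and Id genes encode transcriptional repressors of the helix-loop-helix class, and 9 of them were examined in retinal cells of LHX4::GFP mouse embryos: Hes1, Hes2, Hes5, Hes6, Hey1, Id1, Id2, Id3 and Id4. The members were chosen by gene symbol, and each symbol named 1 of the 28692 genes listed in both libraries. The cells came from E14.5 (embryonic day) retinas of the strain Tg(Lhx4::EGFP)KN199Gsat/Mmucd, kept as heterozygotes for a bacterial artificial chromosome in which Lhx4 sequences drive green fluorescent protein (GFP), so the gates mark activity of the transgene. Retinas of 2 litters were pooled during dissociation, before sorting, and both groups share this genotype, age and pool. They are the GFP+ cells, labelled as cone photoreceptors, and the GFP- cells. Each gate gave 1 droplet library, so no difference between gates or between cell groups has a replicate check and no test was possible. All intervals below are exact 95% intervals that cover counting error only.

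In the developing retina, signalling through Notch receptors releases an intracellular fragment that acts with the DNA-binding protein Rbpj, and Hes1, Hes5 and Hey1 are classic targets of it. Hes1 and Hes5 hold retinal progenitor cells (RPCs) in the cell cycle by repressing proneural genes such as Atoh7 and Neurog2. Hes6 is a relative that counteracts Hes1 and is switched on by proneural factors, and Hes2 is a less studied family member. Id proteins have no DNA-binding region. They pair with E proteins, the partners of proneural factors, and are well-known targets of bone morphogenetic protein (BMP) signalling.

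After filtering, 3689 GFP+ cells held 15503658 unique molecular identifiers (UMIs, each 1 captured transcript) with a median of 3894 per cell, and 3390 GFP- cells held 30108106 with a median of 8850. Levels are given as UMIs per 1000000 UMIs (CPM), with no correction for gene length, so they are compared between cells and not between genes. The libraries shared 20 cell barcodes. Cells were grouped by how many markers of each list had a UMI. In the GFP- library this gave 1658 multipotent-RPC-like cells, 181 RPC-like cells that also held neurogenic markers, 215 neurogenic-like cells and 343 neurogenic-like cells with photoreceptor-fate markers. It also gave 124 cells like retinal ganglion cells (RGC-like) with neurogenic markers, 232 other RGC-like cells, 307 cells with amacrine or horizontal cell (AC/HC) markers and 70 cone-like cells. GFP- cells with mixed markers (98), photoreceptor-fate markers alone (19) or too few markers (143) are not described. In the GFP+ library 3603 cells (97.7%) were cone-like, and 86 were not. Of other tissues, 5 GFP- cells carried 3 or more of 6 endothelial markers and 3 cells 3 or more of 6 microglial ones. The endothelial marker Cdh5 was at 0 in both libraries, and 34 GFP- cells held 3 or more of 7 ciliary margin markers.

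By the GENCODE M21 annotation of GRCm38, the build the counts use, the members lie on 7 chromosomes. Hes1 is at chr16:30064384-30067796, Hes2 at chr4:152158867-152162469, Hes5 at chr4:154960923-154962371, Id3 at chr4:136143497-136145755, Id1 at chr2:152736251-152737410 and Id4 at chr13:48261228-48266026, all on the plus strand. Hes6 at chr1:91411483-91414038, Hey1 at chr3:8663359-8667256 and Id2 at chr12:25093799-25097140 are on the minus strand. No other annotated gene overlaps 7 of the 9. Hes5 overlaps a transcript that was not counted, and Id4 overlaps the counted antisense gene A330033J07Rik. Whether counting used strand is not given in the sources used here, so Id4 reads carry that uncertainty.

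Promoter windows, from 250 bases before to 50 after the start site, were found for 5 members in RefSeq on GRCm38.p6, with 2 windows for Hes6. The members named without a window are Hes1, Hes2, Hey1 and Id1. The Hes5 and Hes6 windows are shown because both genes were higher in neurogenic-like than in multipotent-RPC-like cells. Of Id2, Id3 and Id4, all lower there, only the Id2 window is printed, and the motif results of Id3 and Id4 are given below. The printed windows span chr4:154960673-154960972 (plus strand), chr1:91413989-91414288 and chr1:91413173-91413472 (both minus strand) and chr12:25096043-25096342 (minus strand). Each is printed 5′ to 3′ along its gene, with matches to TGGGAA on either strand, the core recognised by Rbpj, and to CAGCTG, an E-box that reads the same on both strands, in capitals.
Hes5: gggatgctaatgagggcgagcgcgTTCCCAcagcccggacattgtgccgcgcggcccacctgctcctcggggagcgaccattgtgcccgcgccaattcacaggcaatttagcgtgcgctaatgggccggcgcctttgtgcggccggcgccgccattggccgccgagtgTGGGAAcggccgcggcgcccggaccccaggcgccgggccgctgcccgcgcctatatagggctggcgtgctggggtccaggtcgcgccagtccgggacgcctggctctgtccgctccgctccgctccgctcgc
Hes6 upstream window: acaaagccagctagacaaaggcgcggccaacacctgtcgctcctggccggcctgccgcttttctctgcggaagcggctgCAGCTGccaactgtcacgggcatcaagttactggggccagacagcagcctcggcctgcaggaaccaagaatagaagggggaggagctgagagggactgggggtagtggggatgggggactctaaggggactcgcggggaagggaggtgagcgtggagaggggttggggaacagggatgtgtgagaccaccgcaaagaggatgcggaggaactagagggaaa
Hes6 downstream window: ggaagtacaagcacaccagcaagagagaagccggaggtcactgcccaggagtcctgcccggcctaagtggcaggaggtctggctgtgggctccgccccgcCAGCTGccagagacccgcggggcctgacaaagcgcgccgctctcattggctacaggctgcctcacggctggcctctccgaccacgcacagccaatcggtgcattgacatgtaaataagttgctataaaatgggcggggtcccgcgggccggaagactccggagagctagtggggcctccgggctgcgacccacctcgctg
Id2: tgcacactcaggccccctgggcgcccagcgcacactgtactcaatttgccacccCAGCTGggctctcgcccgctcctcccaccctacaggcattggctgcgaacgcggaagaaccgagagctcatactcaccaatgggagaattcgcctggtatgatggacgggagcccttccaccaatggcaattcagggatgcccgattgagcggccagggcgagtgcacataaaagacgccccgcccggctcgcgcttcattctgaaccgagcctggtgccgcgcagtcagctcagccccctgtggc
The Hes5 window held TGGGAA 2 times, once on each strand, beginning 226 and 82 bases before the start site, and no CAGCTG. Among 32544 windows of the same length, 25.4% held TGGGAA at least once and 3.8% at least 2 times. Both Hes5 matches extend to GTGGGAA, a longer form that contains TGGGAA and occurs at least once in 6.39% of windows and at least 2 times in 0.255%. Both Hes6 windows held CAGCTG 1 time, 171 and 150 bases before their start sites, and so did the Id2 window, 196 bases before. CAGCTG was in 16.4% of all windows. The Id4 window held TGGGAA 1 time and the Id3 window neither motif. CACGAG, searched on both strands, was in none of the 6 windows and in 6.5% of all. GGCGCC, the same on both strands, was found 4 times in the Hes5 window and 1 time each in those of Id2 and Id4. Of all windows, 11.9% held it at least once and 2.06% at least 2 times.

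Most members were far lower in GFP+ than in GFP- cells. Hes1 stood at 7.35 CPM (6.07 to 8.83) in GFP+ and 365 CPM (358 to 372) in GFP- cells, 49.7-fold lower (41.3 to 60.2). Hes5 stood at 8.19 and 315 CPM, 38.5-fold lower (32.3 to 46.2). Id3 was at 19.6 and 519 CPM, 26.4-fold lower (23.6 to 29.7), Id1 at 11.2 and 189 CPM, Id4 at 2.45 and 37.3 CPM, and Id2 at 38.6 and 224 CPM. Id2, at 5.79-fold lower (5.33 to 6.31), was the least reduced of the Id genes. Hes6 was 1.88-fold lower (1.83 to 1.94), at 370.4 against 697 CPM, and past 2-fold lower with TMM factors (log2 -1.24), by means of per-cell values (-1.06) or by mean UMIs per cell (-1.99). Hes2 had 1 UMI among all GFP+ cells and 112 among GFP- cells. All 9 members had at least 10 UMIs over both gates, Hes2 only through the GFP- cells. Of these, 7 were at least 2-fold lower in GFP+ cells, where 16.2% of 15237 genes were, and 0 were at least 2-fold higher, where 23% of genes were. On the log2 scale the median ratio of all genes was 0.30, and relative to it the members lay from -6.15 (Hes2) to -0.065 (Hey1). Hey1 stood at 44.3 CPM (41.0 to 47.7) in GFP+ and 37.7 CPM (35.5 to 39.9) in GFP- cells, a ratio of 1.18 that fell below 1 when the libraries were scaled by TMM factors or compared by mean UMIs per cell. The sizes of the larger differences moved with the processing by more than their counting intervals. Over the alternatives the log2 ratio of Hes1, -5.63, ran from -6.71 by mean UMIs per cell to -4.52 with no upper limit on genes, that of Hes5, -5.27, from -6.35 to -4.59, and that of Id3, -4.72, from -5.80 to -3.91.

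A small set of cells carried much of what remained in the GFP+ library. The 86 cells that were not cone-like held 85.1% of the 114 Hes1 UMIs, 71.7% of the 304 Id3 UMIs and 50.4% of the 127 Hes5 UMIs. They held 33.3% of the Id1, 31.6% of the Id4 and 20.03% of the Id2 UMIs, but 6.62% of those of Hes6 and 1.9% of those of Hey1. In the 3603 cone-like cells, Hes1 was at 1.14 CPM (0.663 to 1.82) and had a UMI in 0.444% of cells, against 92.4% of the deeper multipotent-RPC-like cells. There Hes5 was at 4.22 CPM, Id3 at 5.76 CPM, Id1 at 7.76 CPM and Id4 at 1.74 CPM. Hes6 at 359 CPM and Hey1 at 45.0 CPM stayed near their levels in the whole gate. Id2 was at 32.1 CPM (29.25 to 35.06), below its 38.6 CPM (35.6 to 41.86) in the whole gate.

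**Figure D1:**
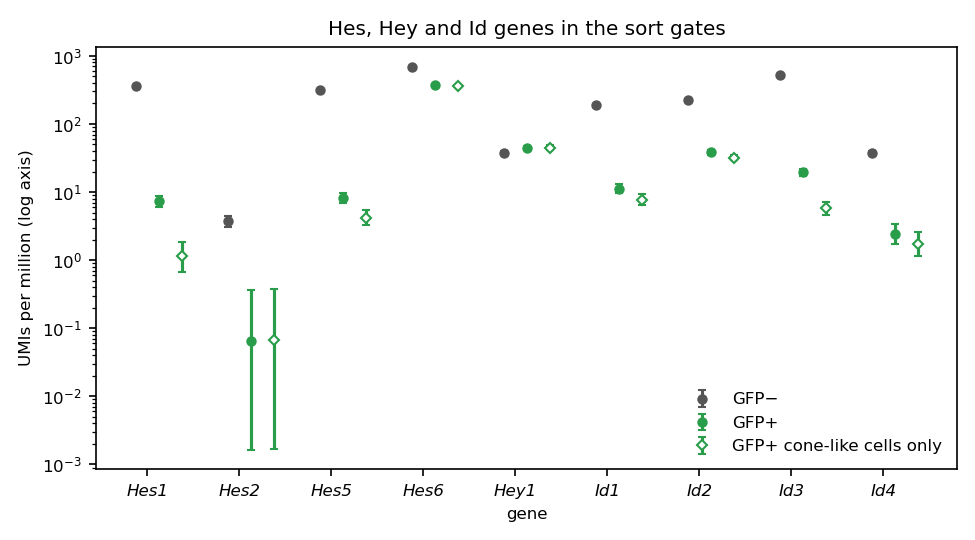
UMIs per 1000000 UMIs (log axis) of the 9 genes in the GFP- cells (grey), all GFP+ cells (filled green) and GFP+ cone-like cells alone (open green); bars are exact 95% Poisson intervals over 1 library per gate. Hes1 and Id3 drop further once the 86 GFP+ cells that were not cone-like are set aside, while Hes6 and Hey1 hardly move.

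Hes1 and Hes5, the main Notch-dependent repressors of progenitors, differed in how they ran across the progenitor and neurogenic groups. These groups were set by markers, and no order in time between them was analysed. Neurogenic-like cells also held summed AC/HC markers at 208.5 CPM, against 3.48 CPM in RPC-like cells with neurogenic markers. Hes1 was highest in multipotent-RPC-like cells at 602 CPM (589 to 614). It was at 357 CPM (329 to 386) in RPC-like cells with neurogenic markers, at 148 CPM (130 to 168) in neurogenic-like cells and at 48.4 CPM (40.6 to 57.2) in neurogenic-like cells with photoreceptor-fate markers. No neighbours among these 4 levels had overlapping intervals. Hes5 ran the other way up to the neurogenic-like cells. It was at 301 CPM (292 to 309) in multipotent-RPC-like cells, 576 CPM (541 to 613) with neurogenic markers added and 1096 CPM (1047 to 1148) in neurogenic-like cells, 3.65-fold above the multipotent cells (3.45 to 3.85), while Hes1 was 4.07-fold below them (3.58 to 4.63). In neurogenic-like cells with photoreceptor-fate markers Hes5 was at 402 CPM (379 to 426), 2.73-fold below the other neurogenic-like cells, and whether this lies above or below the multipotent level depended on the marker threshold, since the ratio of 1.34 fell below 1 when 1 more marker was required. The same requirement moved the ratios of neurogenic-like to multipotent-RPC-like cells on the log2 scale from 1.87 to 0.75 for Hes5, which was then under 2-fold, and from -2.02 to -3.43 for Hes1.

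Both genes were low in the neuronal groups. Hes1 was at 9.19 CPM in RGC-like cells, 5.38 CPM in RGC-like cells with neurogenic markers and 10.5 CPM in GFP- cone-like cells, levels whose intervals overlapped, and was at 40.7 CPM (32.6 to 50.2) in cells with AC/HC markers. Hes5 was at 63.7 CPM in RGC-like cells with neurogenic markers and 19.6 CPM in those without. Among the 307 cells with AC/HC markers, Hes5 UMIs occurred in 34 cells, and 10 of these held 82.1% of the 201 UMIs. The 51 cells with AC/HC markers that also held neurogenic markers had Hes5 at 456 CPM (390 to 530), 25.2-fold above the 256 cells without (17.2 to 37.9). Their 169 Hes5 UMIs lay in 16 of the 51 cells, so these intervals, which take UMIs as independent, are too narrow. Hes1 was 3.69-fold and Hey1 5.77-fold higher in the same 51 cells, while Hes6 was 1.61-fold higher.

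Shares of cells with each gene were compared between groups after thinning to 3200 UMIs. They describe groups and do not show an exchange within single cells. Among multipotent-RPC-like cells, Hes5 was found more often in cells with a Hes1 UMI (48.3%) than in cells without (39.8%). Of 1654 multipotent-RPC-like cells, 38.4% had a Hes1 but no Hes5 UMI, 35.9% had both and 10.2% (8.8 to 11.8) had Hes5 without Hes1. In RPC-like cells with neurogenic markers Hes5 without Hes1 was found in 26.0% (19.8 to 33.0), and in neurogenic-like cells in 49.3% (42.4 to 56.2). In neurogenic-like cells with photoreceptor-fate markers 61.6% (56.2 to 66.8) had neither, against 25.8% of the other neurogenic-like cells and 15.5% of multipotent-RPC-like cells. Hes6 without Hes1 or Hes5 was found in 61.3% of the neurogenic-like cells with photoreceptor-fate markers and in 7.26% of multipotent-RPC-like cells.

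**Figure D2:**
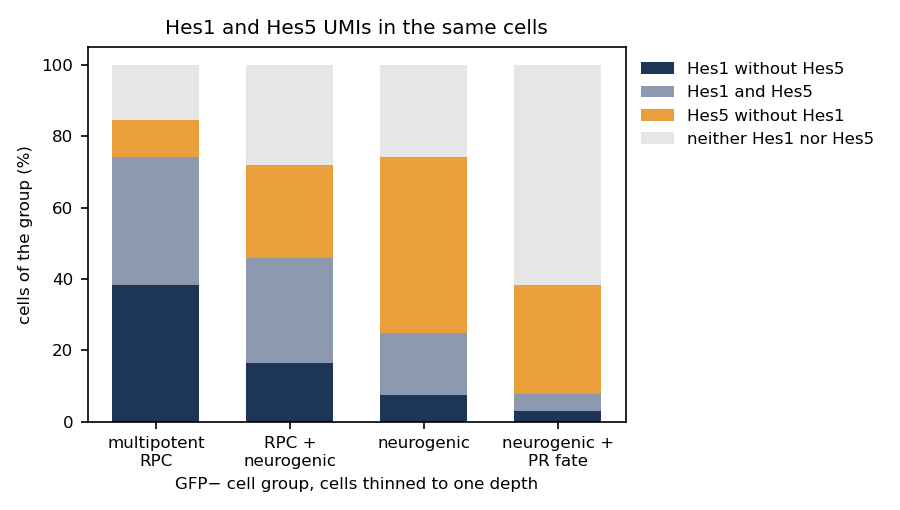
Percent of cells with UMIs of Hes1 alone, of both Hes1 and Hes5, of Hes5 alone or of neither, in 4 GFP- cell groups after thinning each cell to 3200 UMIs. Hes5 without Hes1 grows from 10.2% of multipotent-RPC-like to 49.3% of neurogenic-like cells, and neither gene is the largest class, at 61.6%, where photoreceptor-fate markers are present.

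Hes6, the relative that opposes Hes1, marked every neurogenic group. It was at 244 CPM (237 to 252) in multipotent-RPC-like cells, its lowest level, and at 1340 CPM (1286 to 1396) in RPC-like cells with neurogenic markers, 5.49-fold higher (5.21 to 5.78). Neurogenic-like cells had 1416 CPM (1359 to 1474), an interval that overlapped the last. With photoreceptor-fate markers the level was 2869 CPM (2807 to 2932), 11.7-fold above multipotent-RPC-like cells (11.3 to 12.2) and 2.03-fold above the other neurogenic-like cells (1.94 to 2.12), and all 343 cells had a Hes6 UMI. It was lower in neuronal groups, at 766 CPM in RGC-like cells with neurogenic markers, 566 CPM with AC/HC markers, 444 CPM in GFP- cone-like cells, 359 CPM in GFP+ cone-like cells and 335 CPM in RGC-like cells. The ratio of RGC-like to multipotent-RPC-like cells, 1.37, fell below 1 when cells with more than 3500 genes were let in.

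Hes2 was almost confined to 1 group. Neurogenic-like cells with photoreceptor-fate markers held 103 of the 112 GFP- UMIs (92.0%) in 72 of 343 cells (20.99%, 16.8 to 25.7), and no cell had more than 4. The level was 36.4 CPM (29.7 to 44.1) there and 3.00 CPM (0.973 to 6.99) in the other neurogenic-like cells, from 5 UMIs, a 12.1-fold difference (5.04 to 38.2). Multipotent-RPC-like cells had 2 UMIs in 1658 cells, so the ratio to them, 283, has an interval of 76.5 to 2371. RGC-like cells had 0 UMIs in 232 cells, which allows a share of cells with a UMI of up to 1.29% by 3 counts (1.58% by the exact interval) and sets no limit on cells that express the gene, and cells with AC/HC markers and GFP- cone-like cells had 0 as well. Within the group, Hes2 UMIs lay in cells with markers of the G2/M phase. The 193 cells with at least 6 of 14 G2/M markers had Hes2 at 57.4 CPM (46.7 to 69.8), with a UMI in 35.8% of cells, whereas the 114 cells with at most 2 such markers had none. With a floor of 3 counts (3.73 CPM) in place of 0 the point value is at least 15.4-fold higher, and the exact interval of the ratio begins at 12.3. Median depth also differed, at 9091 and 6866 UMIs, and after thinning to 3200 UMIs the shares were 15.6% and 0%.

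The 72 Hes2-bearing cells differed from the 271 others of the group in several named genes, although their choice by a gene of few UMIs favours deeper cells (medians of 9724 and 7642 UMIs). Of the 72, 69 were among the cells with at least 6 G2/M markers. Top2a is 1 of those markers, so its difference restates this. The other differences were not separated from cell cycle phase. Otx2, Crx, Prdm1 and Neurod1, of which at least 2 were required, and the neurogenic markers Olig2, Neurog2 and Atoh7 served to select the group. Their differences within it are therefore shaped by that choice, since a cell without one marker had to qualify by others. Olig2, a factor of dividing neurogenic RPCs, was at 333 and 121 CPM, 2.75-fold higher with Hes2 (2.29 to 3.3). Top2a, a G2/M gene, was 2.38-fold higher (2.13 to 2.66) and Otx2, which specifies photoreceptors, 1.54-fold higher (1.4 to 1.69). Crx, a later photoreceptor gene, was at 2.93 and 91.1 CPM, 31.1-fold lower with Hes2 by its counts, with an interval of 0.00387 to 0.118 for the ratio. The other photoreceptor-fate markers differed little, with ratios of 1.14 (0.753 to 1.68) for Prdm1 and 0.892 (0.796 to 0.997) for Neurod1. The neurogenic markers Neurog2 and Atoh7 were 1.71-fold and 1.21-fold higher with Hes2. Of the members, Hes6 was 1.28-fold higher with Hes2, and Hes1, Hes5 and Id3 were 3.3-fold, 2.32-fold and 2.37-fold lower.

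Hey1, another Notch target, followed neither Hes1 nor Hes5. It was at 126 CPM (109 to 144) in neurogenic-like cells and at 95.2 CPM (79.2 to 114) in RGC-like cells with neurogenic markers, levels with overlapping intervals, and at 27.6 CPM (25.0 to 30.3) in multipotent-RPC-like cells. Neurogenic-like cells with photoreceptor-fate markers had 15.2 CPM (11.0 to 20.4), 8.29-fold below the other neurogenic-like cells (5.95 to 11.8). These 2 groups also differed in cycling, with summed G2/M markers at 2611 and 975 CPM. In their cells with at most 2 G2/M markers, Hey1 was at 31.1 and 153 CPM. Between the same groups, summed AC/HC markers were at 15.2 and 208.5 CPM and summed RGC markers at 156 and 428 CPM. The Hey1 difference was not separated from these. The neurogenic-like level rests on the marker thresholds. Its log2 ratio to multipotent-RPC-like cells went from 2.19 to 0.28 when 1 more marker of every list was required, which also loosens the exclusions. In GFP+ cone-like cells it was at 45.0 CPM (41.7 to 48.6), from 673 UMIs in 16.8% of cells, and in GFP- cone-like cells at 15.8 CPM (5.79 to 34.3), from 6 UMIs. RGC-like cells had 36.8 CPM, a ratio of 1.33 to multipotent-RPC-like cells that fell below 1 when cells with more than 3500 genes were let in.

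The 4 Id genes were all highest in multipotent-RPC-like cells and were lower in the neurogenic groups to different degrees. Id3 was at 886 CPM (872 to 901) in these cells, at 341 CPM (314 to 370) in RPC-like cells with neurogenic markers and at 76.7 CPM (64.0 to 91.2) in neurogenic-like cells, 11.6-fold below the first group (9.71 to 13.9). Id2 was at 365, 231 and 61.7 CPM in the same groups, 5.92-fold lower in neurogenic-like cells (4.87 to 7.26), and Id4 at 58.6, 27.2 and 12.0 CPM. Id1 changed least. It was at 278 CPM (270 to 287), 254 CPM (231 to 279) and 164 CPM (145 to 184), 1.7-fold lower in neurogenic-like cells (1.51 to 1.93), with the first and second intervals overlapping. Neurogenic-like cells with photoreceptor-fate markers had Id1 at 116 CPM, Id2 at 67.8 CPM, Id3 at 62.8 CPM and Id4 at 15.9 CPM, and for Id2, Id3 and Id4 these intervals overlapped those of the other neurogenic-like cells. In RGC-like cells the Id genes stood between 8.39 CPM (Id1) and 17.2 CPM (Id2), 54.1-fold below multipotent-RPC-like cells for Id3 (39.9 to 75.4) and 5.23-fold for Id4 (3.6 to 7.92). Cells with AC/HC markers had Id3 at 32.3 CPM and Id2 at 11.7 CPM.

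**Figure D3:**
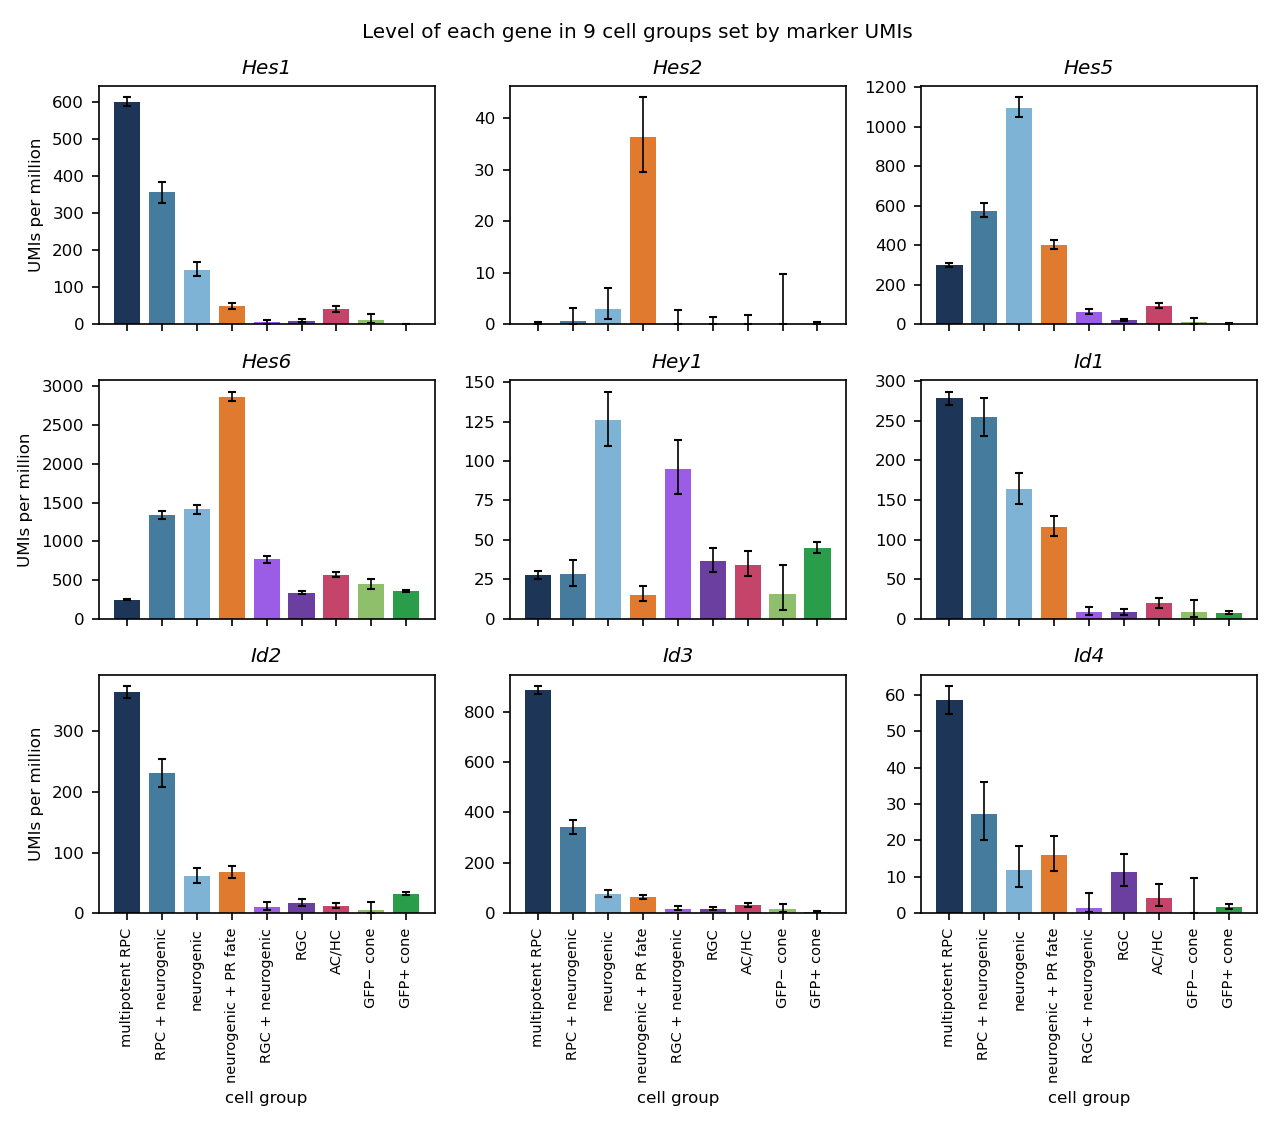
UMIs per 1000000 UMIs of each gene (linear axes from 0, a separate scale per panel) in 8 GFP- cell groups and the GFP+ cone-like cells; bars are sums over cells and whiskers exact 95% Poisson intervals. Hes1 and the Id genes peak in multipotent-RPC-like cells, Hes5 and Hey1 in neurogenic-like cells, and Hes6 and Hes2 in neurogenic-like cells with photoreceptor-fate markers.

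The members past 2-fold are counted here beside all genes with at least 10 UMIs over both groups. A gene can meet this minimum through the group where it is high alone, as Hes2 did below. Between neurogenic-like and multipotent-RPC-like cells 8 members had at least 10 UMIs, the exception being Hes2. Of these, 3 were at least 2-fold higher (Hes5, Hes6 and Hey1), where 9.84% of 13125 genes were, and 4 at least 2-fold lower (Hes1, Id2, Id3 and Id4), where 13.9% were. With 1 more marker required, Hes6 stayed past 2-fold upward while Hes5 and Hey1 did not. For RPC-like cells with neurogenic markers 1 of 8 was at least 2-fold higher (4.36% of genes) and 2 lower (6.96%). For neurogenic-like cells with photoreceptor-fate markers 2 of 9 were higher (8.22%) and 5 lower (13.2%). Of the 2 higher, Hes2 was counted only through its high group, with 103 against 2 UMIs, and the other was Hes6. In RGC-like cells 0 of 8 were higher (18%) and 6 lower (22.3%), and with AC/HC markers 1 was higher (18.3%) and 6 lower (19.4%), the former being Hes6, whose log2 ratio of 1.21 ran down to 0.55 over the alternatives. In RGC-like cells with neurogenic markers all 8 were past 2-fold in either direction (35.2% of genes), Hes6 and Hey1 upward and the others downward. In GFP- cone-like cells 6 of 8 were past 2-fold in either direction (38.1%), all downward. Between the neurogenic-like groups, with photoreceptor-fate markers over without, 2 of 9 were at least 2-fold higher (Hes2 and Hes6, where 5.44% of 10957 genes were) and 3 lower (Hes1, Hes5 and Hey1, where 4.81% were). Here too Hes2 reached 10 UMIs only through its high group, with 103 against 5 UMIs. The counts do not separate the differences between these groups in cycling or in AC/HC and RGC markers. Among their cells with at most 2 G2/M markers, Hes6 was at 1879 and 1211 CPM. Over all cells the Hes6 ratio of 2.03 lies close to 2-fold, and the ratios between these groups were not recomputed under the alternatives.

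Among multipotent-RPC-like cells themselves, most members varied more from cell to cell than counting alone gives. After thinning, the variance of Id3 UMIs over 1654 cells was 2.89 times their mean, and 3 of the 103 genes within 1.5-fold of its mean had a higher ratio. The ratio was 2.78 for Hes6, 2.38 for Hes5 and 2.03 for Hes1, with 2 of 489, 4 of 405 and 5 of 150 genes higher, and the median ratio of such genes was between 1.04 and 1.11. Id2 had 1.7, Id1 1.55, Id4 1.14 and Hey1 0.99, where a Poisson count gives 1. Id3 had 0 UMIs in 22.2% of cells and over 5 in 16.0%, where a Poisson count of the same mean gives 5.73% at 0.

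**Figure D4:**
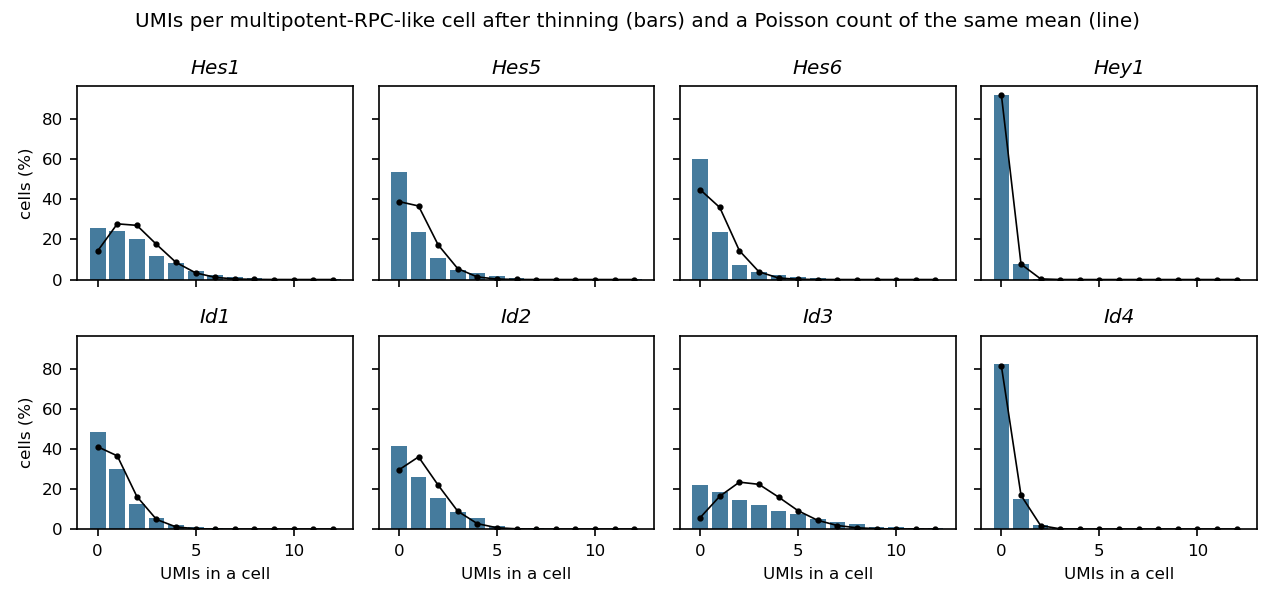
Percent of 1654 multipotent-RPC-like cells by number of UMIs of each gene after thinning to 3200 UMIs (bars, up to 12 UMIs) and a Poisson count of the same mean (black line). Id3, Hes5 and Hes6 have more cells at 0 and more at high counts than the line, and Hey1 follows it.

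Detection of the members in the same multipotent-RPC-like cells was read after thinning. Id3 was found in 87.0% (84.7 to 89.1) of cells with an Id2 UMI and 64.8% (61.1 to 68.4) of cells without, and in 86.5% against 68.5% for Id1. Hes5 was found in 48.3% (45.5 to 51.2) of cells with Hes1 and 39.8% (35.1 to 44.6) of those without, and Hes6 in 37.8% against 46.4%. Between Hes5 and Id3 the shares were 76.4% and 79.0%, with overlapping intervals.

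Levels were next split by markers of the G2/M phase of the cell cycle. Between 652 multipotent-RPC-like cells with at least 6 G2/M markers and 672 with at most 2, Hes1 stood at 595 and 606 CPM, a ratio of 0.983 (0.939 to 1.03), and Id3 at 870.0 and 895 CPM, a ratio of 0.972. Hes5, Id1, Id2 and Id4 were 1.31-fold to 1.37-fold higher in G2/M cells, and Hes6 1.16-fold lower. Hey1, at 1.29-fold higher, fell below a ratio of 1 when cells were thinned. None of 8 members passed 2-fold, as 4.02% of 12597 genes did upward and 4.1% downward. Among neurogenic-like cells, 46 with at least 6 G2/M markers had Id2 at 137 and Id3 at 165 CPM, 4.09-fold (2.64 to 6.39) and 3.87-fold (2.62 to 5.76) above 146 cells with at most 2. Id1 was 3.33-fold and Hes1 2.4-fold higher. Hey1 was the reverse, at 70.9 CPM in G2/M and 153 CPM in the other cells, 2.15-fold lower (a ratio of 0.464, 0.299 to 0.695), and Hes5 was alike at 1124 and 1103 CPM, with a ratio of 1.02 (0.912 to 1.14). With photoreceptor-fate markers Id1 was again 3.5-fold higher in G2/M cells, Hes6 was 1.8-fold higher at 3386 against 1879 CPM, and Hey1 was 4.17-fold lower. Id2 and Id3 were 1.46-fold (1.003 to 2.16) and 1.34-fold (0.907 to 2.03) higher there, and whether the G2/M ratios differ between the neurogenic groups was not tested.

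The Id genes also differed between dorsal and ventral progenitors. Multipotent-RPC-like cells with a UMI of a dorsal marker (Tbx5, Tbx3, Tbx2 or Aldh1a1) and of none of the ventral markers (Vax2, Vax1, Aldh1a3 or Ephb2) numbered 336, and those with the converse 673. Id3 was at 1221 CPM in dorsal and 636 CPM in ventral cells, 1.92-fold higher (1.84 to 2.01). Id2 was at 505 and 257 CPM, 1.97-fold higher (1.83 to 2.11), Id4 1.64-fold (1.37 to 1.96) and Id1 1.57-fold higher (1.44 to 1.7). Hes5 was lower in dorsal cells, at 234 and 347 CPM, a ratio of 0.675 (0.619 to 0.734). Hes1 was at 598 and 616 CPM, with a ratio of 0.971 (0.918 to 1.03). None of 8 members passed 2-fold, as 2.34% of 12189 genes did upward and 2.18% downward, but Id1, Id2 and Id3 did when 1 more marker was required. The same directions held for the Id genes and Hes5 within G2/M cells and within the other cells, a split chosen after seeing the data. There Id3 was 1.79-fold and 1.89-fold higher in dorsal cells, and Hes5 had ratios of 0.693 and 0.66. Summed ciliary margin markers were at 154 CPM in dorsal and 271 CPM in ventral cells. Between 224 multipotent-RPC-like cells with at least 2 margin markers and 427 with none, also chosen after seeing the data, Id3 stood at 892 and 1017 CPM, a ratio of 0.877 (0.831 to 0.925), Hes5 had a ratio of 0.844 (0.764 to 0.931) and Hes6 was at 168 and 377 CPM.

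**Figure D5:**
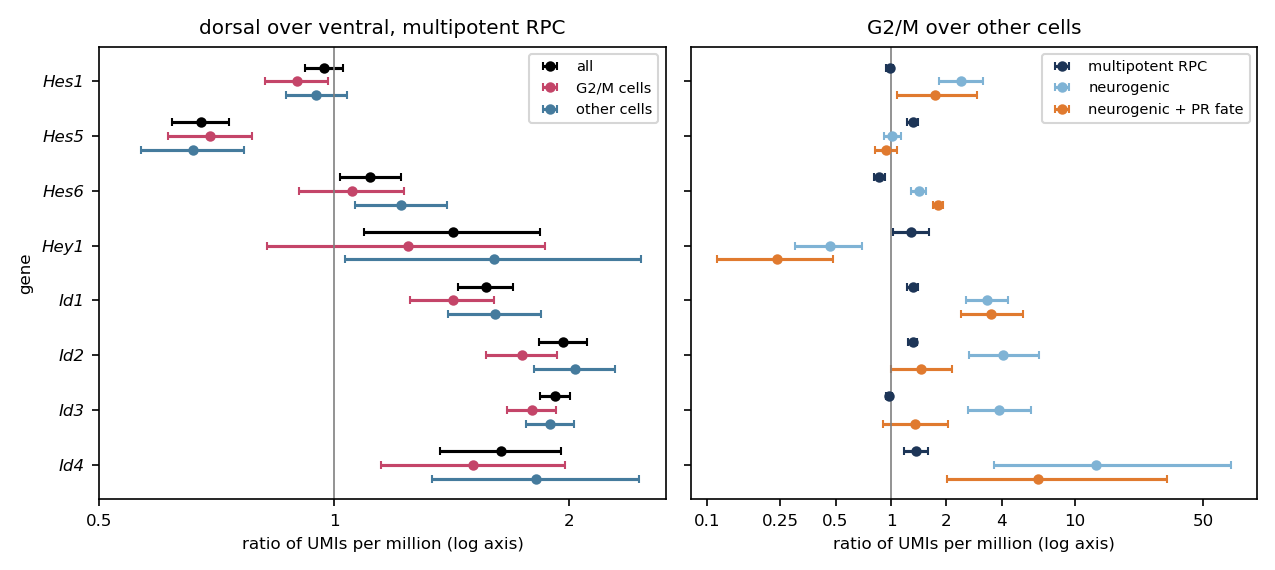
Ratios of CPM (log axes) with exact 95% intervals for 8 genes. Left, dorsal over ventral multipotent-RPC-like cells, over all such cells, G2/M cells and other cells. Right, G2/M over other cells in 3 GFP- groups. Id1 to Id4 lie above 1 and Hes5 below 1 in all dorsal comparisons, and Hey1 lies below 1 in both neurogenic groups on the right.

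Components of the BMP pathway, whose known targets include Id genes, were read in the same dorsal and ventral cells. Whether the pathway bears on the Id differences was not tested. Of 12189 genes, 2.34% were at least 2-fold higher in dorsal cells and 2.18% lower. Of 11 BMP ligands and receptors, 10 had at least 10 UMIs, of which 2 were at least 2-fold higher in dorsal cells and 1 lower, with a median log2 ratio of 0.19 beside 0.0235 for all genes. The higher ones were the ligands Bmp4, from 11 UMIs in dorsal and 2 in ventral cells, a ratio of 11.4 (2.5 to 106), and Gdf6, at 6.5 and 1.41 CPM. The receptor Bmpr1b was at 1.95 and 15.9 CPM, 8.17-fold lower (3.63 to 22.8). Of 12 effectors and inhibitors, 8 had at least 10 UMIs, and 2 were at least 2-fold higher and 0 lower. These were Bambi, a pseudoreceptor that is itself induced by BMP, at 61.1 and 17.3 CPM, 3.53-fold higher (2.77 to 4.5), and Smad9, from 9 and 3 UMIs. The inhibitory Smad6 was 1.8-fold higher (1.22 to 2.66). None of the 4 Notch receptors, of the 4 Notch ligands with enough UMIs, of the 11 Notch modulators and nuclear effectors or of the 3 E proteins passed 2-fold between dorsal and ventral cells.

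Notch components were read between neurogenic-like and multipotent-RPC-like cells, where Hes1 and Hes5 parted. Of all genes, 9.84% were at least 2-fold higher in neurogenic-like cells and 13.9% lower. All 4 ligands with enough UMIs were at least 2-fold higher in neurogenic-like cells and 0 lower, with a median log2 ratio of 3.3 beside 0.027 for all genes. Dll3 was at 113 and 7.7 CPM and Dll4 at 19.2 and 1.67 CPM, and Dll1 and Jag1 were 8.49-fold and 4.67-fold higher. Of the 4 receptors, 0 were at least 2-fold higher and 2 lower, with a median log2 ratio of -0.74. Notch1 was at 112 and 56.6 CPM, 1.98-fold higher (1.68 to 2.32), and Notch3 at 2.4 and 14.7 CPM, 6.13-fold lower (2.36 to 22.7). Of 11 modulators and nuclear effectors, 4 were at least 2-fold higher, namely Lfng, which modifies Notch receptors, at 156 and 29.0 CPM, its relative Mfng, Rbpj and Numbl, and 0 were lower, with a median log2 ratio of 0.37. Rbpj was at 119 and 52.0 CPM. Nrarp, a Notch target that feeds back on the pathway, was at 79.7 and 102 CPM, a ratio of 0.784 (0.652 to 0.937). Of the other Hes, Hey and Helt genes, 4 of 7 had enough UMIs, and Heyl was at 24.0 and 5.39 CPM, 4.45-fold higher (2.97 to 6.55), while Bhlhe40 had 0 and 18 UMIs, a difference not detectable at this depth. Of the 3 E proteins, the partners that Id proteins hold, 0 passed 2-fold.

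In neurogenic-like cells with photoreceptor-fate markers, where Hes2 and Hes6 peaked, Dll4 was at 168 CPM, Dll3 at 232 CPM and Notch1 at 127 CPM, while Lfng was at 33.2 CPM against 156 CPM in the other neurogenic-like cells and Heyl at 1.41 against 24.0 CPM. Between the gates, Notch1, Notch3 and Notch4 were at least 2-fold lower in GFP+ cells, and Notch2, at 17.9 and 10.7 CPM, was 1.67-fold higher (1.41 to 1.96). The median log2 ratio of the 4 receptors was -1.66, beside 0.30 for all genes, of which 23% were at least 2-fold higher and 16.2% lower. Lfng, at 0.774 and 33.7 CPM, and Nrarp, at 8.58 and 71.8 CPM, were lower along with Mfng, while Numbl, at 89.1 and 23.2 CPM, and Maml3, at 28.1 and 12.8 CPM, were at least 2-fold higher, among 11 modulators and nuclear effectors with a median log2 ratio of 0.42. Dll3 was 3.27-fold higher (3.06 to 3.5), at 157 against 47.9 CPM, and Rbpj stood at 74.0 and 76.4 CPM. The Groucho/TLE family includes corepressors recruited by Hes proteins, though not every member need act so. Of its 6 genes read here, Tle1 was 5.2-fold higher in GFP+ cells (4.96 to 5.45). Tle6 and Aes were at least 2-fold lower.

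Among GFP+ cone-like cells, grouped by UMIs of Fabp7 and of Slc7a3 or Slc7a5, the members varied little. Of 7 members with enough UMIs, 1 (Id1) was called past 2-fold in the 448 cells with Slc7a3 or Slc7a5, as 4.01% of 12410 genes were upward and 2.03% downward. Id4, from 2 and 16 UMIs, had a ratio of 0.458 (0.051 to 1.95), which is past 2-fold by its counts but not once 0.5 is added to each count, as the calls do. Id1 stood at 16.7 CPM, from 32 UMIs in 19 cells, against 5.85 CPM in 1821 cells with neither, a ratio of 2.86 (1.74 to 4.65). In the 1334 cells with Fabp7 none of 8 members passed 2-fold (1.82% of 12939 genes upward, 2.07% downward). There Hes6 was at 421 CPM against 333 CPM, a ratio of 1.26, and Id2 at 24.9 against 38.6 CPM, a ratio of 0.645. Hey1 was at 40.7, 47.5 and 48.1 CPM in cells with Fabp7, with Slc7a3 or Slc7a5 and with neither. Between GFP+ and GFP- cone-like cells, 2 of 8 members were at least 2-fold higher (12% of 13238 genes) and 3 lower (9.19%). Those higher were Hey1 at 2.86-fold (1.31 to 7.81) and Id2, from 479 UMIs against 2, at 6.1-fold (1.68 to 50.5). Hes1 was 9.24-fold lower (2.26 to 28.3), and the ratios of Hes5 and Id3, the other members counted as lower, had intervals that reached past 1. The GFP+ and GFP- cone-like cells also differed in make-up, with summed cone markers at 5211 and 2631 CPM. Of them, 1334 of 3603 and 54 of 70 had Fabp7 without Slc7a3 or Slc7a5, and the ratios were not separated from this. The GFP- cone-like values of Hes1, Hes5 and Id3 rest on 4, 5 and 6 UMIs. These genes were abundant in the rest of that library, free RNA was not estimated, and its part in these values was not tested.

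Across the 9 groups drawn in the bar plot, the genes whose levels ran most like each member were found among 4617 genes by the Pearson correlation of log2(CPM + 10). The groups share 2 libraries and differ in depth and cycling, so the values are a description. For Hes1 they were Cox4i2 (0.98), Nudt4 (0.97) and Id3 (0.97), and for Id3 Prss23, Cox4i2 and Nudt4. Cox4i2 is also the coding gene nearest to Id1, 16763 bases away. For Id1 they were Cdca7, Tk1 and Pcna, all S phase genes, and for Id2 Dusp6 (0.98) and Etv5 (0.97), both known for following FGF signalling, and Lig1. Id4 ran most like Raly, Dtx4 and Nudt4. Hes5 ran with Phf5a, Immp1l and Tmem98, Hes6 with Rbm8a (0.94), Scoc and Mybl1, and Hey1 with Pdia4 (0.92), Hyal2 and Lancl1. Within the family, Hes1 correlated with Id1 at 0.95 and with Hes5 at 0.82, whereas Hey1 lay between -0.19 and 0.19 with every other member compared.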

How the data were processed

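A droplet library of each gate, GFP+ and GFP-, was sequenced at a core facility, and filtered matrices came from Cell Ranger 2.1.1 on mm10. The deposited matrices give raw UMI counts for every gene in every cell barcode, with no normalization.

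Cells with 250 to 3500 genes (counting genes found in more than 3 cells) and a mitochondrial fraction under 0.25 were kept, 3689 of 3728 GFP+ and 3390 of 4445 GFP- barcodes. With no upper limit 4444 GFP- cells would have stayed. Scrublet in scanpy 1.11.5 called 4 and 45 doublets, and 3 and 0 of them were among kept cells. They were left in.

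A cell joined a group by the number of listed markers with a UMI: at least 5 of 7 for multipotent RPC, 3 of 5 neurogenic, 4 of 10 RGC, 2 of 6 AC/HC, 3 of 8 cone and 2 of 4 photoreceptor fate. These thresholds were set after the markers' distributions were seen. Neurogenic-like cells had to be below the multipotent RPC threshold, while neurogenic-like cells with photoreceptor-fate markers could be above it. Summed multipotent RPC markers were at 1495 CPM in the former and 1801 CPM in the latter. Members and lists were chosen with earlier results of these data known, and the splits within neurogenic-like and AC/HC cells, by Hes2 and by ciliary margin markers were added after the data were seen.

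UMIs were summed per group and given per 1000000 with 95% exact Poisson intervals, shares with Clopper-Pearson intervals and ratios with exact conditional binomial intervals. With 1 library per gate nothing was tested. A count of 0 was bounded by 3 counts. Counts of genes past 2-fold used genes with at least 10 UMIs and added 0.5 to each count, while printed ratios add nothing. Free RNA was not estimated. Thinning drew 3200 UMIs per cell, leaving out 579 GFP+ and 28 GFP- cells. The intervals were tried on simulated Poisson counts, the model they assume, so that trial says nothing about counts that vary more. Those of Id3, Hes6, Hes5 and Hes1 did so among multipotent-RPC-like cells, and to a lesser degree those of Id2 and Id1. Intervals are too narrow for such counts. This spread is not given for the other groups, so whether their intervals overlap is read from counting error alone. Genes named are the members, the listed pathway genes and, for members reaching 50 CPM in a group, the 3 genes with the most similar profile. Otx2, Crx, Prdm1, Neurod1 and Top2a were also named as group or phase markers. The list of proneural factors is not reported here.

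Alternatives were no upper limit on genes, a mitochondrial fraction under 0.1, doublet calls left out, means of per-cell values, thinning, TMM factors (edgeR 4.0.16, R 4.3.3), mean UMIs per cell, 1 more marker required, groups set on thinned cells and, for cones, 2 UMIs to set the group. Scripts ran under Python 3.11.15 (scipy 1.17.1, pandas 2.3.3, numpy 2.4.6). Promoter windows were read from RefSeq sequences on GRCm38.p6.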

Additional observations from a re-analysis of the deposited data

How the results depend on the processing

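Of 652 member ratios recomputed under an alternative, 511 moved by less than their counting interval, 135 moved by more with the same direction and 6 changed direction. On the log2 scale these 6 were Hey1 between the gates at -0.095 with TMM factors and -0.85 by mean UMIs per cell, Hes6 and Hey1 in RGC-like over multipotent-RPC-like cells at -0.073 and -0.40 with no upper limit on genes, Hey1 in G2/M cells at -0.040 after thinning, and Hes5 in neurogenic-like cells with photoreceptor-fate markers at -0.54 with 1 more marker required. TMM factors and mean UMIs per cell put the median of all genes at -0.029 and -0.78 in place of 0.30. Ratios between the neurogenic-like groups, between GFP+ and GFP- cone-like cells and in the splits added after the data were seen were not recomputed. Counted over all 9 members with no minimum of UMIs, those past 2-fold between dorsal and ventral cells numbered 0, but 1 with no upper limit, after thinning or with groups set on thinned cells, and 3 with 1 more marker required. They went from 4 to 2 after thinning for RPC-like cells with neurogenic markers, from 8 to 5 with groups set on thinned cells for RGC-like cells with neurogenic markers, from 2 to 1 after thinning or with 2 UMIs to set the group for cones with Slc7a3 or Slc7a5, and from 0 to 1 with 2 UMIs for cones with Fabp7. No share of all genes under the alternatives is given beside these counts or the next one. They are therefore not read as a result about the members. With no minimum they include Hes2, from 1 against 2 UMIs for RPC-like cells with neurogenic markers and 5 against 2 for neurogenic-like cells. With 1 more marker required the count for neurogenic-like cells went from 8 to 7. Hes5 and Hey1 were then no longer past 2-fold and Id1 was newly past it, downward. This setting raised the threshold of every list, those that exclude cells included. Cells with only 2 photoreceptor-fate markers could then join the neurogenic-like group, and the cause of the shifts was not tested. Leaving out doublet calls removed 3 cells and bears little weight. No paired analysis was possible because each gate is 1 library with no replicate number. With 1 library per gate, spread between animals is unknown, and at a median of 3894 UMIs per GFP+ cell a gene near 1 CPM could not be read in single cells.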
